A study of Homo sapiens with 9 samples.

Results

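The ligand CLI was given for 24 h to breast cancer cells that already expressed oestrogen receptor beta isoform 1 (ERβ1), and messenger RNA was sequenced from cells with and without it. The comparison used 6 of the 9 libraries of the study, 3 of ERβ1 cells with CLI and 3 of ERβ1 cells without CLI, chosen by their labels alone. All 9 libraries came from the established human cell line MDA-MB-231, a basal-type breast cancer line that stands for triple negative disease. The ERβ1 cells of both groups had been transduced with a lentiviral vector that expresses GFP, luciferase and ERβ1 under doxycycline. The remaining 3 libraries came from control cells whose vector carried GFP and luciferase without the receptor. Their levels are given here only for orientation. They also entered the filter on low counts and the shared estimate of spread, so every p-value depends on them. Every culture, control cells included, received doxycycline at 100 ng/ml for 3 days. The labels describe transduced cultures and do not say whether any was 1 clone. The sources used here do not give what CLI stands for, its dose, or whether the other cells received a vehicle. No control cells received CLI, so effects of the ligand with and without the receptor cannot be told apart. Nothing states that the 3 libraries of a group came from separate cultures, and p-values then measure only the spread between these samples, which may be technical.

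Oestrogen receptor beta, encoded by ESR2, is a nuclear receptor that acts as a transcription factor. A ligand that fills its pocket changes which coactivators and corepressors it recruits to the genes it is bound to. It reads oestrogen response elements directly and can also act through other transcription factors. Triple negative breast cancer cells lack the classical receptor, oestrogen receptor alpha (ESR1), so that an introduced ERβ1 can be studied without it. GREB1, a chromatin-bound cofactor of oestrogen receptors, is a long-known oestrogen-responsive gene, and LOXL4 is a secreted amine oxidase that crosslinks collagen and elastin.

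Between 39902456 and 55387538 estimated counts were deposited per library, of which mitochondrial transcripts took 6.93 to 7.92%. The tests covered 17058 of 60240 genes. The libraries numbered 2 stood apart in both ERβ1 groups: they differed from the others of their group by a chi-square per gene of 19.96 to 21.8, against 13.5 without and 11.3 with CLI between libraries 1 and 3. The number 2 libraries deviated together from their group means, with a correlation of residuals of 0.416 over genes, while libraries 1 and 3 correlated as much across numbers as within them. The count of changed genes is also given from a fit with the replicate number as a block, and without both number 2 libraries. Markers of basal breast cancer lines, 10 listed and 8 tested, were summed in CPM (counts scaled to a library of 1e+06). The 10 summed to 7330 to 7551 CPM without and 7116 to 7522 CPM with CLI. However, the basal keratin KRT5 had 0 counts in all 9 libraries and the basal keratin KRT14 reached at most 0.149 CPM. Of 9 luminal, 5 fibroblast and 3 blood cell markers tested, 0 were called in either direction by edgeR, where 1.47% of all tested genes were called. At an unadjusted p under 0.05, which 12.8% of all tested genes reached, these counts were 0, 1 and 1. DESeq2 called 0 of them and 4.08% of all genes to which it gave an adjusted p. The blood cell markers summed to 91.5 to 96.6 CPM without and 79.9 to 90.2 CPM with CLI, and the defining leukocyte gene PTPRC reached at most 1.37 CPM. ESR1 stood at 0.114, 0.0535 and 0.0993 CPM in the ERβ1 libraries and at 0.765, 5.98 and 0.0677 CPM with CLI, so that 2 of the 3 libraries with CLI, to unequal degrees, lay above all ERβ1 libraries. ESR1 did not pass the filter on low counts and was not tested.

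With CLI, RNA for GREB1, LOXL4, the matrix glycoprotein OLFML3 and the activin chain INHBB was about 4 to 5 times as high as without it, and complement C3 and the semaphorin SEMA3B rose as well. Most members of a list of endoplasmic reticulum chaperones and folding enzymes were higher by smaller factors. Falls were fewer and smaller, and they included the collagenase MMP1 and the introduced ESR2 itself. The call of the largest fall, that of the class II transactivator CIITA, was lost under the replicate block (edgeR adjusted p = 0.0722). Lists of mitotic, DNA replication, respiratory chain and receptor cofactor genes held no member called by edgeR. In these bulk samples, a change in the share of cells that carry a transcript and a change in RNA per cell cannot be told apart.

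In all, 251 of 17058 genes (1.47%) were called, that is, had an edgeR quasi-likelihood p adjusted by Benjamini and Hochberg under 0.05. Of these, 178 (1.04%) were higher and 73 (0.428%) lower with CLI. These calls rest on a spread estimated with the control libraries included. A fit of the 6 ERβ1 libraries alone called 158 genes, 129 higher and 29 lower. With the replicate number as a block 136 genes were called, 104 higher and 32 lower, and without both number 2 libraries 72, of which 56 were higher and 16 lower. Changes were mostly small: 175 of the 251 called genes moved by less than 1.5-fold, whereas 43 (0.252%) changed by at least 2-fold, of which 42 rose (0.246%) and 1 fell (0.00586%). At least 4-fold rises numbered 18. Rises led the calls at every level of expression, but the 2-fold rises sat mostly at low levels, 17 under 1 CPM and 21 at 1 to 10 CPM against 3 at 10 to 100 CPM and 1, LOXL4, above 100 CPM. These levels are means over all 9 libraries, control cells included. The median log2 fold change over all tested genes was -0.00027. All 251 called genes had groups that did not overlap, as did 18.8% of all tested genes, 9.53% higher and 9.26% lower. The call of 96 genes, 79 higher and 17 lower, held with each of the 9 libraries left out in turn and also under the block.

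**Figure D1:**
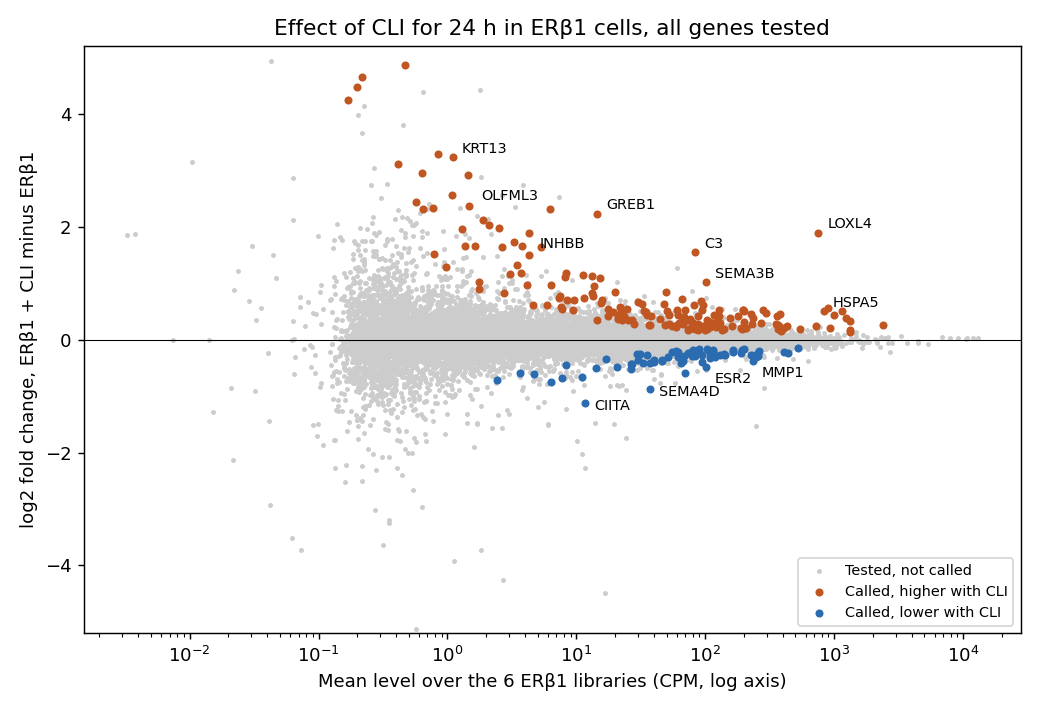
Log2 fold change with CLI in ERβ1 cells (vertical) against the mean level over the 6 ERβ1 libraries in CPM (horizontal, log axis) for the tested genes, called genes in orange (higher) and blue (lower). LOXL4 stands alone among highly expressed genes at a log2 fold change of 1.88, and the called falls reach down to CIITA at -1.12 and SEMA4D at -0.87.

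LOXL4 (chromosome 10, 98247690 to 98268250, minus strand, GRCh38) had the smallest adjusted p of all genes. It stood at 321, 321 and 321 CPM in ERβ1 libraries 1, 2 and 3 and at 1186, 1171 and 1198 CPM with CLI. The groups were far apart and the libraries within each nearly equal, so that the rise was 3.69-fold (log2 fold change 1.88 ± 0.02 SE, n = 3 each, edgeR adjusted p = 1.1e-09). Control cells, for orientation, held 96.9 ± 1.3 CPM (SD, n = 3). GREB1 (chromosome 2, 11482341 to 11642788, plus strand) stood at 4.92, 5.32 and 5.19 CPM without and at 26.4, 22.2 and 23.2 CPM with CLI. The groups did not come near each other, a 4.65-fold rise (log2 fold change 2.22 ± 0.13 SE, edgeR adjusted p = 9.47e-05). Control cells held 0.827 ± 0.208 CPM of GREB1. Both genes were called in all 19 alternative analyses.

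The introduced receptor moved the other way. ESR2 (chromosome 14, 64084232 to 64338112, minus strand) stood at 118, 115 and 118 CPM in ERβ1 cells and at 82.6, 87.7 and 82.2 CPM with CLI, against 0.132 to 0.14 CPM in the control libraries. All 6 receptor libraries thus matched their labels, and those with CLI lay below those without (log2 fold change -0.48 ± 0.04 SE, edgeR adjusted p = 0.000363). The call held in all 19 alternatives. The rises described here were therefore measured at a lower ESR2 RNA level than in the cells they are compared with. ESR2 does not check which libraries received CLI. How the counts divide between the vector and the cells' own gene was not tested.

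Of the 12 largest rises named by rule, OLFML3, INHBB, LOXL4, CCN5 and C3 encode secreted proteins, a feature noted after the values were seen and not tested. OLFML3, an olfactomedin-domain glycoprotein of the matrix, stood at 2.31, 1.87 and 2.09 CPM without and 10.8, 9.89 and 10.5 CPM with CLI (log2 fold change 2.32 ± 0.15 SE, edgeR adjusted p = 0.000122). INHBB, the chain of activin B, stood at 1.72, 1.82 and 1.94 CPM without and 6.19, 7.52 and 6.53 CPM with CLI (log2 fold change 1.89 ± 0.12 SE, edgeR adjusted p = 0.000122). In control cells INHBB, at 2.11 ± 0.151 CPM, was as high as in ERβ1 cells without CLI. C3, the central complement component, stood at 45.2, 45.9 and 35.2 CPM without and 131, 118 and 122 CPM with CLI. This was a rise of 2.94-fold (log2 fold change 1.55 ± 0.11 SE, edgeR adjusted p = 0.000216), with ERβ1 library 3 the lowest. CCN5, a matricellular protein of the connective tissue growth factor family, went from 2.61 ± 0.162 to 8.07 ± 0.891 CPM (SD, n = 3 each). SEMA3B, a secreted semaphorin, stood at 63.7, 64.9 and 70.9 CPM without and 136, 133 and 138 CPM with CLI, 2.04-fold higher (edgeR adjusted p = 5.46e-05). VASN, a surface protein that binds TGF-beta, stood at 34.9, 34.8 and 36.3 CPM without and 64.4, 61.4 and 63.5 CPM with CLI (edgeR adjusted p = 5.46e-05). OLFML3, INHBB, C3, CCN5, SEMA3B and VASN were called in all 19 alternatives.

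The other large rises were in genes of low level, with more spread. RNF223, a ring finger protein gene, had 0 counts in control cells and stood at 0.961, 1.02 and 1.07 CPM in ERβ1 cells against 3.45, 4.12 and 4.38 CPM with CLI (log2 fold change 1.97 ± 0.16 SE, edgeR adjusted p = 0.00263). FABP3, which binds fatty acids in the cytosol, rose from 1.83 ± 0.306 to 5.76 ± 0.654 CPM, and SLC47A1, an exporter of organic cations, from 2.26 ± 0.542 to 6.33 ± 0.983 CPM (SD, n = 3 each). The calls of RNF223, FABP3 and SLC47A1 held without each library in turn but not without both number 2 libraries (edgeR adjusted p = 0.0754, 0.0563 and 0.0684). SLITRK4, a neuronal membrane protein gene, rose from 1.5 ± 0.37 to 5.02 ± 0.213 CPM, and its call was lost without ERβ1 library 2 or 3 or CLI library 3 (edgeR adjusted p of up to 0.0614). RASGRP1, an activator of Ras, went from 1.31 ± 0.345 to 4.03 ± 0.444 CPM (edgeR adjusted p = 0.0449). Its call remained only without control library 1 or 3 and was lost without any of the other 7 libraries (edgeR adjusted p of up to 0.155). It was also lost under the replicate block (edgeR adjusted p = 0.0961).

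**Figure D2:**
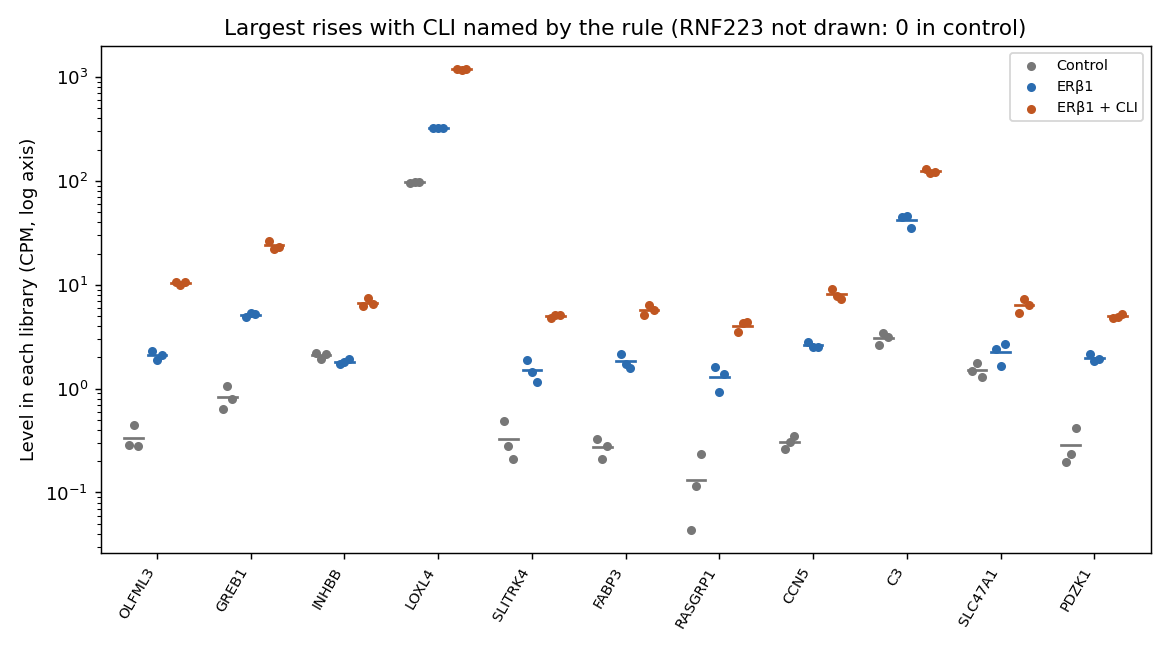
Level in each library in CPM (log axis) of the genes with the largest rises among those with a mean of at least 2 CPM, with control, ERβ1 and ERβ1 + CLI libraries as points and the group means as bars. For each gene drawn, the 3 CLI libraries lie above the 3 ERβ1 libraries, and INHBB alone of these is as high in control cells (2.11 CPM) as in ERβ1 cells (1.82 CPM).

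Oestrogen-responsive genes were then taken as a list, since the cells carried an oestrogen receptor. Like all lists here, it was chosen with earlier results of these data known. Of 38 genes listed, 29 could be tested, and 10 were called higher (34.5%) and 0 lower with CLI, with a median log2 fold change of 0.20 over the 29. Of all tested genes 1.04% were called higher. The count was 8 under the replicate block, 6 without both number 2 libraries, and between 6 and 11 over all alternatives. At least 2-fold rises were measured for 6 members: GREB1, CCN5, KRT13, PDZK1, HSPB8 and TPD52L1. The small heat shock protein gene HSPB8 stood at 9.75, 9.72 and 9.68 CPM without and 20.6, 21.3 and 20.3 CPM with CLI (log2 fold change 1.09 ± 0.08 SE, edgeR adjusted p = 0.000239). TPD52L1, which regulates membrane trafficking, rose from 2.28 ± 0.258 to 5.2 ± 0.393 CPM. PDZK1, a scaffold of membrane transporters, stood at 2.17, 1.86 and 1.94 CPM without and 4.75, 4.9 and 5.28 CPM with CLI. Its call was lost without ERβ1 library 2 or 3 or CLI library 2 or 3 (edgeR adjusted p of up to 0.0703). The keratin gene KRT13 had 0 counts in control cells, 29 counts over the 3 ERβ1 libraries and 275 counts with CLI, 9.39-fold higher (edgeR adjusted p = 0.00263, and 0.0531 without both number 2 libraries).

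The members that rose less included abundant secretory genes. IGFBP4, which binds insulin-like growth factors, stood at 1064, 1041 and 1101 CPM without and 1448, 1370 and 1359 CPM with CLI (log2 fold change 0.38 ± 0.04 SE, edgeR adjusted p = 0.0017). CTSD, a lysosomal protease secreted by breast cancer cells, rose from 838 ± 44.6 to 1136 ± 24.4 CPM (edgeR adjusted p = 0.00353, and 0.0563 without both number 2 libraries). The scaffold gene SLC9A3R1 rose from 79.5 ± 3.8 to 96 ± 2.82 CPM and lost its call without ERβ1 library 1 or 3 or CLI library 1 or 3 (edgeR adjusted p of up to 0.0874) and under the block (edgeR adjusted p = 0.0688). CELSR2, an adhesion receptor, went from 44.2 ± 0.831 to 52.9 ± 3.1 CPM, and its call was lost without any library but CLI library 2 (edgeR adjusted p of up to 0.166) and under the block (edgeR adjusted p = 0.0985). Well-known members were not called: the cell cycle gene CCND1 stood at 880, 887 and 885 CPM without and 893, 891 and 868 CPM with CLI, while the growth factor AREG had a log2 fold change of -0.03, MYC of -0.01 and the survival gene BCL2 of -0.01. The progesterone receptor gene PGR and the trefoil factor genes TFF1 and TFF3 did not exceed 0.176 CPM in any library and were not tested.

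Genes that fold and modify proteins in the endoplasmic reticulum moved in 1 direction. The lumen of this compartment holds chaperones, disulphide isomerases and a disposal pathway for misfolded proteins. When folding capacity is short, sensors in its membrane switch on these genes, partly through the factors ATF6 and XBP1, which act at the endoplasmic reticulum stress element. Of the 20 genes listed, all were tested, 12 were called higher (against 1.04% of all tested genes) and 0 lower, and the log2 fold change was positive for all 20, with a median of 0.32. The count was 9 under the replicate block, 7 without both number 2 libraries, and between 6 and 15 over all alternatives. The summed level was 5716 to 5866 CPM in the ERβ1 libraries and 7191 to 7426 CPM with CLI.

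The 2 lumenal chaperones at the head of the list changed nearly alike. HSPA5 (chromosome 9, 125234853 to 125241330, minus strand), the Hsp70 chaperone BiP, stood at 675, 702 and 680 CPM without and 968, 1002 and 957 CPM with CLI (log2 fold change 0.51 ± 0.03 SE, edgeR adjusted p = 7.75e-05). HSP90B1 (chromosome 12, 103930107 to 103953645, plus strand), the Hsp90 chaperone GRP94, stood at 949, 963 and 938 CPM without and 1343, 1393 and 1324 CPM with CLI (log2 fold change 0.51 ± 0.03 SE, edgeR adjusted p = 8.74e-05). The groups of both genes lay apart by several times their spread, and both calls held in all 19 alternatives. PDIA4, a disulphide isomerase, stood at 252, 248 and 248 CPM without and 339, 352 and 341 CPM with CLI, and HYOU1, a nucleotide exchange factor for BiP, at 297, 316 and 314 against 420, 407 and 412 CPM. CRELD2, a secreted stress protein, stood at 15.1, 13.8 and 14 CPM without and 20.4, 20 and 21.7 CPM with CLI. MANF rose by 1.36-fold, the calcium-binding chaperone CALR by 1.25-fold, the disposal component SEL1L by 1.24-fold and the isomerase PDIA6 by 1.2-fold. The last 3 called members were weaker. DNAJB11 lost its call without ERβ1 library 2 or 3 (edgeR adjusted p of up to 0.072) and under the block (edgeR adjusted p = 0.0529). PDIA3 kept its call only without control library 1 and DNAJC3 only without CLI library 1, with edgeR adjusted p of up to 0.147 and 0.138 and of 0.0773 and 0.0961 under the block.

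Members that were not called included XBP1 itself, at 117, 117 and 114 CPM without and 119, 120 and 120 CPM with CLI (log2 fold change 0.04), and the chaperone CANX (log2 fold change 0.10). HERPUD1, another disposal component, varied widely, from 43.2 to 59.4 CPM without and from 37.5 to 63.1 CPM with CLI, and was the lowest in the number 2 library of each group. Lists of other stress pathways held fewer edgeR calls. Of 23 genes of amino acid supply and the integrated stress response, 0 were called by edgeR, and 0 of 18 cytosolic heat shock genes, with median log2 fold changes of 0.01 and 0.03. At an unadjusted p under 0.05, reached by 12.8% of all tested genes, the counts were 7 and 3, so that the 7 of 23 lay above that share. DESeq2 called 2 and 1, against 4.08% of all genes to which it gave an adjusted p. Of 20 NRF2 targets, which answer oxidative stress, edgeR called 2 higher (10%, against 1.04% of all tested genes), FTH1 and SQSTM1. Positive log2 fold changes numbered 17, with a median of 0.11 over the list. At an unadjusted p under 0.05 there were 11, all higher, and DESeq2 called 7, so that both counts lay above the share of all genes. None was called under the block or without both number 2 libraries. The cytosolic chaperone HSP90AA1 stood at 1536 CPM without and 1509 CPM with CLI (log2 fold change -0.03).

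**Figure D3:**
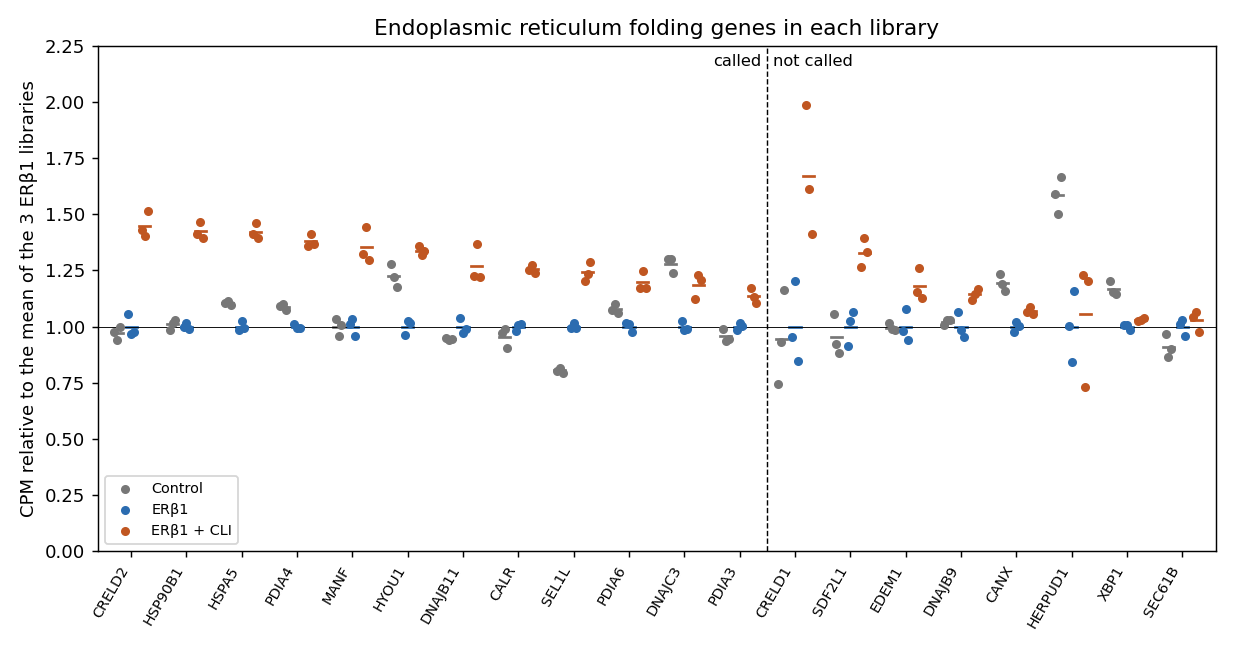
Level of each of the 20 endoplasmic reticulum folding genes in each library, as CPM divided by the mean of the 3 ERβ1 libraries, with points for libraries and bars for group means, the 12 called genes to the left of the dashed line. The CLI libraries of the called genes lie above all ERβ1 libraries, with HSPA5 and HSP90B1 near 1.42 times the ERβ1 mean.

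The promoters of these genes were read for the stress element, because the called folding genes rose together. The letters CCAAT, any 9 bases and then CCACG were searched on both strands in the RefSeq promoter windows (GRCh38.p14, 250 bases before to 50 after each gene's start). This motif was chosen after the values had been seen. The element is known from genes of this kind, so its share among them is not an independent result. The matches in folding genes are shown here 5′ to 3′ on the strand of the motif, with the fixed letters CCAAT and CCACG in capitals and the spacer in lower case.
HSPA5, chr9:125241391-125241409, minus strand: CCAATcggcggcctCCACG
HSP90B1, chr12:103930216-103930234, plus strand: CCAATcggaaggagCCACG
HSP90B1, chr12:103930321-103930339, minus strand: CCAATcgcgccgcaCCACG
CALR, chr19:12938384-12938402, minus strand: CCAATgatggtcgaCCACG
CRELD2, chr22:49918554-49918572, minus strand: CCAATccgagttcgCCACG
CANX, chr5:179698778-179698796, plus strand: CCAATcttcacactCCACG
XBP1, chr22:28800603-28800621, minus strand: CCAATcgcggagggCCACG
Of 19 folding genes with a promoter in the table, 6 held the motif (31.6%), against 15 of 11936 promoters of tested genes (0.126%) and 22 of all 27305 promoters (0.0806%). Of the 133 called higher genes with a promoter, 4 held it (3.01%), namely HSPA5, HSP90B1, CALR and CRELD2, all of them folding genes. Of the 56 called lower genes, 0 held it. CANX and XBP1 hold the same letters and were not called. A match is a description of the letters only, and most called folding genes had none in this window.

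The HSPA5 promoter is given as an example of where the motif lies, since HSPA5 had the smallest adjusted p of the folding genes. Its 250 bases before the start (GRCh38.p14, minus strand, chr9:125241344-125241593) are printed 5′ to 3′ with the motif in capitals, which begins 66 bases before the start.
HSPA5: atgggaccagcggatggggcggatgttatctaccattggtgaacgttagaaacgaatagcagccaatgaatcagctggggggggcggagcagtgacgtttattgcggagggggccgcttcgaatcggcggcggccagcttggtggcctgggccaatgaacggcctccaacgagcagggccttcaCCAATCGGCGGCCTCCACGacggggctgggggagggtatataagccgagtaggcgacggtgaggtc
For the receptor's own element, the full palindrome, GGTCA and TGACC 3 bases apart, was found in 2 of 11936 promoters of tested genes (0.0168%), in 18 of all 27305 (0.0659%) and in 0 promoters of called genes. Its shorter part GGTCA, on either strand and also where it lies within the palindrome, was found in 51 of 133 called higher (38.3%), 14 of 56 called lower, 34.5% of tested and 37.7% of all promoters. Oestrogen receptors mostly bind far from gene starts, and the absence of these letters says nothing about the receptor. GREB1, C3 and CCN5 had no promoter in the table.

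Enzymes that crosslink or hydroxylate collagen were called only higher, and other genes of the extracellular matrix in both directions. The matrix falls named here were not called under the block. Of 5 lysyl oxidases tested, LOXL4 and LOX rose. LOX stood at 108, 108 and 112 CPM without and 138, 154 and 144 CPM with CLI, 1.33-fold higher (edgeR adjusted p = 0.00337). LOXL2, by contrast, stood at 319, 297 and 309 CPM without and 251, 264 and 253 CPM with CLI and just missed the call (log2 fold change -0.27, edgeR adjusted p = 0.054), with 1 lysyl oxidase called lower in some alternatives. The collagen prolyl hydroxylase P4HA1, singled out after its values were seen, rose from 93.6 to 113 CPM on average (edgeR adjusted p = 0.00475, and 0.0684 without both number 2 libraries). Of 23 collagens and matrix glycoproteins, 3 were higher (13.0%) and 2 lower (8.7%), with a median log2 fold change of 0.04. Of all tested genes, 1.04% were called higher and 0.428% lower. Besides OLFML3, thrombospondin 1 (THBS1) rose, from 2177 ± 93.2 to 2596 ± 9.26 CPM. Tenascin C (TNC) went from 83.3 ± 2.71 to 55 ± 6.88 CPM, but its call remained only without control library 2 or 3 or CLI library 3 (edgeR adjusted p of up to 0.101, and 0.0871 under the block). The laminin chain LAMB3 went from 548 ± 16.8 to 495 ± 5.05 CPM and lost its call without any of the 9 libraries (edgeR adjusted p of up to 0.138) and under the block (edgeR adjusted p = 0.0884).

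Secreted protease systems shifted by modest factors. MMP1, the interstitial collagenase, stood at 264, 271 and 261 CPM without and 197, 215 and 198 CPM with CLI, a non-overlapping fall (log2 fold change -0.38 ± 0.04 SE, edgeR adjusted p = 0.00263) called in all 19 alternatives. SERPINE2, a protease inhibitor, rose from 67.2 ± 2.14 to 86 ± 2.84 CPM, whereas SERPINB2, an inhibitor of plasminogen activators, stood at 9.45, 9.72 and 9.68 CPM without and 6.07, 6.18 and 5.67 CPM with CLI (log2 fold change -0.69 ± 0.07 SE, edgeR adjusted p = 0.00287). MMP1 and SERPINE2 were the only called members of 22 invasion and metastasis genes. That was 4.55% in each direction, against 1.04% of all tested genes called higher and 0.428% lower. Of 8 cystatins, inhibitors of cysteine proteases, 3 were called higher (37.5%), CST4, CST5 and CST1. CST4 stood at 18.3, 17.6 and 19.1 CPM without and 26.5, 25.6 and 25.5 CPM with CLI (log2 fold change 0.50 ± 0.06 SE, edgeR adjusted p = 0.00656). CST5 had 0 counts in control cells, 93 counts in ERβ1 cells and 288 counts with CLI, and CST1 went from 59.1 ± 2.56 to 74.7 ± 0.422 CPM. The count of called cystatins was 1 under the block and 0 without both number 2 libraries. CST5 kept its call only without a control library or CLI library 2, and CST1 only without a control library (edgeR adjusted p of up to 0.0745 and 0.0795). Reads of CST1 and CST4, which are nearly alike in sequence, may have been divided wrongly.

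**Figure D4:**
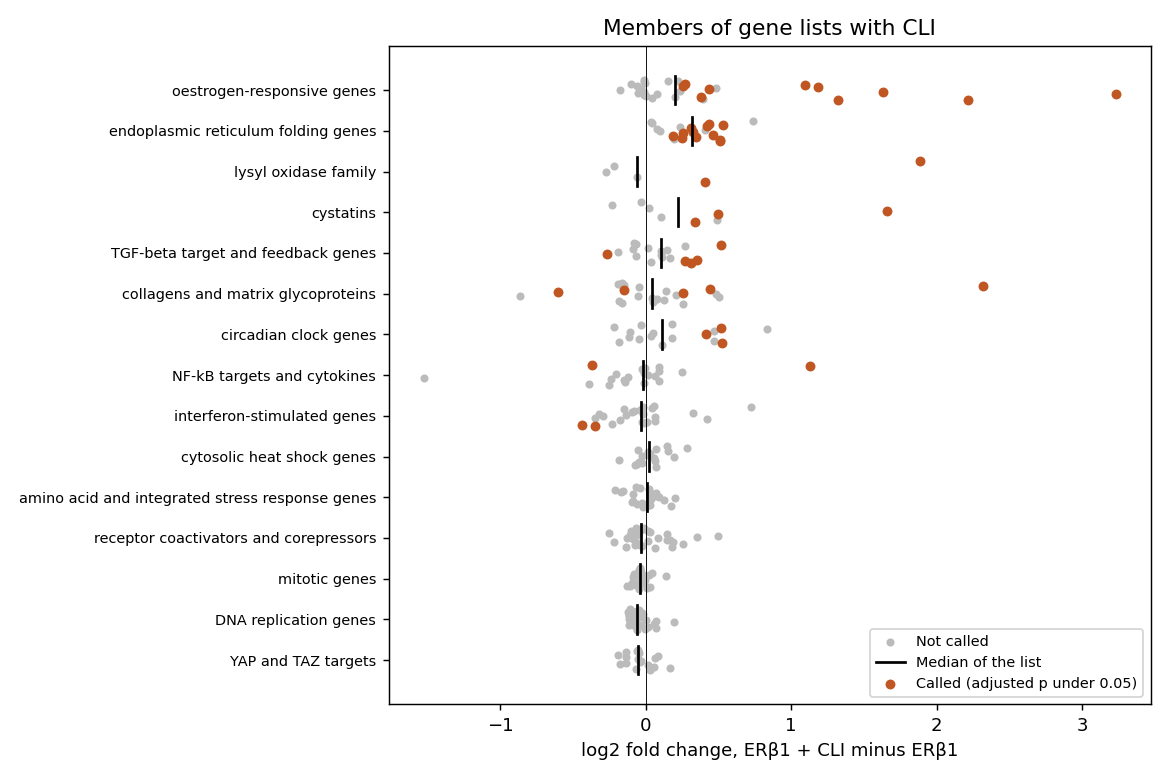
Log2 fold change with CLI in ERβ1 cells for each tested member of 15 gene lists, called members in orange, others in grey, and the list's median as a black line. Called members lie to the right for the oestrogen-responsive and endoplasmic reticulum folding lists (medians 0.20 and 0.32), to both sides for matrix genes, and are absent from the mitotic, replication and cofactor lists.

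Genes of TGF-beta and activin signalling were called among ligands and feedback inhibitors. Of those named here, only the activin chains were also called under the block. INHBA, the chain of activin A, stood at 76.5, 79.4 and 78.4 CPM without and 112, 114 and 109 CPM with CLI (log2 fold change 0.52 ± 0.03 SE, edgeR adjusted p = 0.000175), called in all 19 alternatives. Both activin chains INHBA and INHBB thus rose. The TGF-beta ligand gene TGFB2 went from 141 ± 7.22 to 117 ± 1.95 CPM (edgeR adjusted p = 0.0255). Among 18 TGF-beta target and feedback genes, 4 were higher (22.2%, against 1.04% of all tested genes) and TGFB2 lower (5.56%, against 0.428%). The median log2 fold change of the list was 0.11. Besides INHBA, the higher members were the feedback inhibitors PMEPA1, SKIL and SMAD7, with log2 fold changes of 0.31, 0.27 and 0.35. Only INHBA was called under the block, where TGFB2, PMEPA1, SKIL and SMAD7 had edgeR adjusted p of 0.0804, 0.0646, 0.0961 and 0.0871. TGFB2 lost its call without ERβ1 library 2 or 3 or any CLI library and PMEPA1 without any ERβ1 or CLI library. SKIL lost it without any of the 9 libraries and SMAD7 without any but control library 1 (edgeR adjusted p of up to 0.166). SNAI1, a repressor of epithelial genes that TGF-beta induces, stood at 4.67, 4.73 and 5.91 CPM without and 11.8, 11.7 and 11.1 CPM with CLI, 2.26-fold higher (edgeR adjusted p = 0.00297, and 0.0595 without both number 2 libraries). SNAI1 was the only called member of 12 mesenchymal genes. Of 16 epithelial genes only the tight junction gene TJP1 was called, rising by 1.16-fold. That call remained only without control library 1 or 2 (edgeR adjusted p of up to 0.12, and 0.0722 under the block).

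Inflammatory genes were called in both directions, where 1.04% of all tested genes were called higher and 0.428% lower. PTGS2, the inducible cyclooxygenase, stood at 7.71, 7.58 and 9.48 CPM without and 16.6, 19.6 and 18 CPM with CLI, 2.19-fold higher (edgeR adjusted p = 0.00337, and 0.0606 without both number 2 libraries). PTGES, which turns the product of that enzyme into prostaglandin E2, went the other way, from 29.5, 31.5 and 33.4 CPM to 22, 22.9 and 21.1 CPM (log2 fold change -0.51 ± 0.07 SE, edgeR adjusted p = 0.00799, and 0.0754 without both number 2 libraries). Of 21 NF-kB targets and cytokines, PTGS2 was the only one called higher and the cytokine IL24 the only one called lower, from 33.9 ± 1.09 to 26.2 ± 0.451 CPM (edgeR adjusted p = 0.00356, and 0.0555 without both number 2 libraries). The 24 interferon-stimulated genes held 0 called higher and 2 (8.33%) called lower. At an unadjusted p under 0.05, which 12.8% of all tested genes reached, there were 11, 3 of them higher and 8 lower. A negative log2 fold change was measured for 16 of the 24, with a median of -0.03. IFIT2, a translation inhibitor, stood at 31.6, 30.5 and 31.2 CPM without and 23, 23.3 and 22.5 CPM with CLI (log2 fold change -0.44 ± 0.05 SE, edgeR adjusted p = 0.00263). IFIT1 went from 19.1 ± 0.691 to 15 ± 0.671 CPM and kept its call only without control library 3 (edgeR adjusted p of up to 0.138, and 0.0722 under the block). In control cells both stood lower, IFIT2 at 18.3 ± 0.573 and IFIT1 at 11.5 ± 0.522 CPM.

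CIITA, the master activator of MHC class II genes, had the only call of a fall of at least 2-fold. It stood at 17.4, 11.2 and 19.7 CPM without and 6.24, 7.23 and 8.69 CPM with CLI, so that the groups did not overlap but ERβ1 library 2 was low (log2 fold change -1.12 ± 0.20 SE, edgeR adjusted p = 0.034). The call remained only without ERβ1 library 2 and was lost without any other library (edgeR adjusted p of up to 0.124) and under the block (edgeR adjusted p = 0.0722). SEMA4D, a membrane semaphorin, and B3GALT5, a galactosyltransferase, fell similarly unevenly. SEMA4D stood at 62.1, 42.7 and 40.4 CPM without and 27.8, 25.6 and 26.2 CPM with CLI, with ERβ1 library 1 high, and B3GALT5 at 9.68, 6.46 and 7.92 against 4.61, 4.83 and 4.9 CPM. The call of SEMA4D remained only without control library 3 and that of B3GALT5 only without ERβ1 library 2 (edgeR adjusted p of up to 0.161 and 0.144, and 0.0932 and 0.0753 under the block).

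Of the other named falls, a few were even across libraries. OXTR, the oxytocin receptor, stood at 23.5, 25 and 24.4 CPM without and 17.9, 18 and 16.3 CPM with CLI (log2 fold change -0.48 ± 0.06 SE, edgeR adjusted p = 0.00438, and 0.0563 without both number 2 libraries). NR2F2, the orphan nuclear receptor COUP-TFII, stood at 244, 250 and 247 CPM without and 202, 206 and 206 CPM with CLI (log2 fold change -0.27 ± 0.03 SE, edgeR adjusted p = 0.00277). SIK2, a kinase of the salt-inducible family, went from 73.8 ± 1.04 to 55.5 ± 2.72 CPM and ASB1, a subunit of a ubiquitin ligase, from 86.7 ± 1.49 to 71.1 ± 0.725 CPM. The calls of OXTR, NR2F2, SIK2 and ASB1 held without each library in turn and under the block, and those of SIK2 and ASB1 were lost without both number 2 libraries (edgeR adjusted p = 0.0531 and 0.0576). The calls of KCTD4, FGF1, MUSK, ALPK2 and RPL13AP20 were lost without most of the 9 libraries, each left out in turn. Their log2 fold changes were -0.72, -0.67, -0.60, -0.49 and -0.60. FGF1, a fibroblast growth factor, kept its call only without CLI library 2, the receptor kinase gene MUSK only without CLI library 1 and the kinase gene ALPK2 only without ERβ1 library 3. KCTD4 kept its call only without a control library, and the pseudogene RPL13AP20, whose reads can come from its parent gene RPL13A, only without control library 2 or 3. The edgeR adjusted p of these 5 genes reached 0.103 to 0.146 with a library left out, and under the block only FGF1 was called (edgeR adjusted p = 0.0466).

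**Figure D5:**
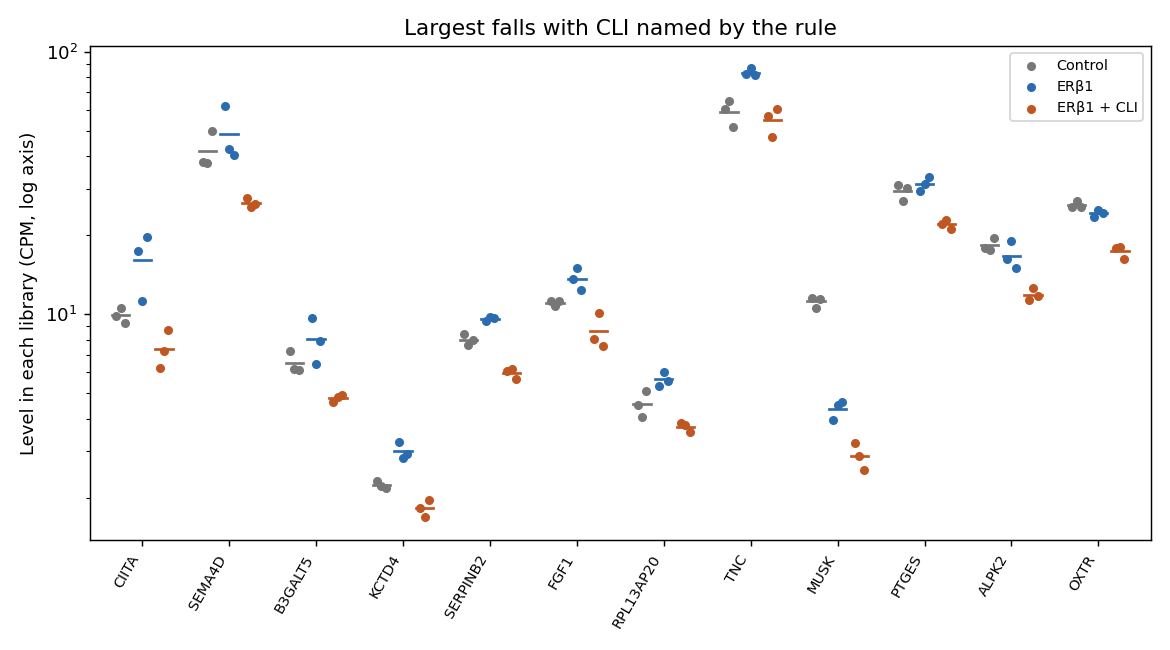
Level in each library in CPM (log axis) of the genes with the largest falls among those with a mean of at least 2 CPM, with control, ERβ1 and ERβ1 + CLI libraries as points and the group means as bars. The CLI libraries lie below the ERβ1 libraries for each gene, closely grouped for SERPINB2, PTGES and OXTR and with 1 ERβ1 library apart for CIITA (11.2 CPM) and SEMA4D (62.1 CPM).

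Among 14 nuclear receptor genes tested, ESR2 and NR2F2 were lower (14.3%, against 0.428% of all tested genes). The vitamin D receptor VDR was higher (7.14%, against 1.04%). VDR stood at 59.1, 60.2 and 55.8 CPM without and 81.6, 68.7 and 75.2 CPM with CLI, but its call remained only without CLI library 2 (edgeR adjusted p of up to 0.126, and 0.0522 under the block). Of 30 coactivators and corepressors through which such receptors act, 0 were called by edgeR in either direction, with a median log2 fold change of -0.03. An unadjusted p under 0.05 was reached by 3 of them, against 12.8% of all tested genes. DESeq2 called 1, against 4.08% of all genes to which it gave an adjusted p. Of 17 circadian clock genes, 3 were higher (17.6%, against 1.04% of all tested genes) and 0 lower. BHLHE40, a clock repressor, stood at 107, 106 and 103 CPM without and 158, 149 and 145 CPM with CLI (log2 fold change 0.52 ± 0.04 SE, edgeR adjusted p = 0.000467), called in all 19 alternatives. ARNTL, the partner of CLOCK, rose from 7.71 ± 0.518 to 11.1 ± 0.501 CPM and NR1D1, which represses ARNTL, from 18.8 ± 0.736 to 25.1 ± 0.379 CPM. ARNTL lost its call without ERβ1 library 1 or 3 or CLI library 2 or 3, and NR1D1 without any ERβ1 or CLI library (edgeR adjusted p of up to 0.0623 and 0.124, and 0.0292 and 0.0623 under the block). GSN, which severs actin filaments, stood at 159, 159 and 159 CPM without and 231, 226 and 232 CPM with CLI (log2 fold change 0.53 ± 0.03 SE, edgeR adjusted p = 8.74e-05), called in all 19 alternatives.

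Growth, metabolic and signalling lists held few calls or none by edgeR, which called 1.47% of all tested genes. These lists are short, and each one with a call lay above that share. Among 13 fatty acid oxidation and PPAR targets, 15.4% were called higher and 7.69% lower. The shares were 5.88% and 11.8% for 17 MAPK feedback genes, and 7.69% each way for 13 EGF receptor family genes and ligands. For the 22 immediate early genes they were 9.09% and 4.55%. Under the replicate block, the lists just named in turn kept 1, 0, 1 and 1 calls, all higher. Of 27 mitotic and 31 DNA replication genes, 0 were called by edgeR or in any of the 19 alternatives, although most members had a slightly negative log2 fold change (22 of 27 and 25 of 31, with medians of -0.04 and -0.06). At an unadjusted p under 0.05, reached by 12.8% of all tested genes, there were 6 mitotic and 4 replication genes. The ribosome biogenesis list was also without an edgeR call, with 17 of 18 members negative, a median of -0.09, 2 members at an unadjusted p under 0.05 and 1 called by DESeq2. The edgeR calls numbered 0 as well among 25 nuclear respiratory chain genes, 13 mitochondrially encoded transcripts, 18 YAP and TAZ targets, 11 Wnt targets and 11 aryl hydrocarbon receptor targets. In that order, 1, 0, 7, 2 and 3 members had an unadjusted p under 0.05, and DESeq2 called 0, 0, 3, 1 and 1, so that the 7 of 18 YAP and TAZ targets lay above the share of all genes. The glycolytic gene HK1 rose from 320 ± 5.48 to 389 ± 10.6 CPM (log2 fold change 0.28 ± 0.03 SE, edgeR adjusted p = 0.00261) as the only called gene of 25 in hypoxia and glycolysis. An unadjusted p under 0.05 was reached by 10 of these 25, 6 higher and 4 lower, above the share of all genes. Among the 22 immediate early genes, 9 had an unadjusted p under 0.05, 6 higher and 3 lower, also above that share. Of them JUNB rose by 1.33-fold, its call lost without ERβ1 library 1 (edgeR adjusted p = 0.0509). ERRFI1, an inhibitor of the EGF receptor, rose from 354 ± 7.63 to 408 ± 6.82 CPM (edgeR adjusted p = 0.0074). The cell cycle inhibitor CDKN1A stood at 101, 101 and 100 CPM without and 115, 119 and 117 CPM with CLI, the only called gene of 23 p53 targets and CDK inhibitors. Its call was lost without any ERβ1 library or CLI library 3 (edgeR adjusted p of up to 0.0614, and 0.0503 under the block).

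The other called list members had changes under 2-fold whose calls were lost without 1 or more of the libraries, each left out in turn. TM7SF2 of cholesterol synthesis rose by 1.77-fold and lost its call without CLI library 1 (edgeR adjusted p = 0.0509). PDK4, which restrains pyruvate use, rose by 1.86-fold and GPAM, the first enzyme of glycerolipid synthesis, by 1.34-fold, and both lost their calls under the block (edgeR adjusted p = 0.0649 and 0.0639). PDK4 kept its call only without a control library or ERβ1 library 3, and GPAM only without a control library or CLI library 1 (edgeR adjusted p of up to 0.106 and 0.0909). UCP2, a mitochondrial carrier, ACAT2, of cholesterol synthesis, the transcription factor FOSL1, the phosphatase DUSP5 and the EGF receptor ligand HBEGF had log2 fold changes of -0.37, -0.22, -0.22, -0.22 and -0.23. The autophagy receptor SQSTM1, ferritin FTH1 and IER3 had log2 fold changes of 0.16, 0.14 and 0.18. None of these 8 was called under the block (edgeR adjusted p of 0.0576 to 0.1). With single libraries left out, UCP2 was lost without ERβ1 library 1 or 3 or CLI library 2 or 3, ACAT2 and SQSTM1 were kept only without CLI library 2, and FOSL1 and DUSP5 only without control library 1 or 3. FTH1 was kept only without control library 3, IER3 only without control library 1, and HBEGF was lost without any of the 9 (edgeR adjusted p of up to 0.171 over these genes).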

How the data were processed

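Messenger RNA of 9 MDA-MB-231 libraries was analysed, 3 per group. The cell line names in the labels count upward across libraries, but only MDA-MB-231 appears in the growth protocol, and all were read as that line. Per the labels' protocols, stranded libraries were sequenced as single reads of 101 cycles on 1 lane. The tools named, per the submitters' processing notes, were Salmon 1.2.1, edgeR 3.30.3 in R 4.0.2, Trimmomatic 0.38, bcl2fastq 2.20 and FastQC, and the build was GRCh38. The sources used here do not give the annotation release. The authors deposited estimated counts per gene, with no normalization stated, and log2 CPM with TMM-scaled library sizes. Counting error alone sets a limit of 3 counts for a gene at 0.

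Here the estimated counts were rounded and fitted with edgeR 4.0.16 (R 4.3.3). After filterByExpr by group and TMM scaling, 1 quasi-likelihood fit over all 9 libraries gave a shared estimate of spread. The contrast was ERβ1 with CLI minus ERβ1, 2-sided, adjusted by Benjamini and Hochberg over 17058 genes, with genes called at an adjusted p under 0.05. The SE is the log2 fold change divided by the square root of F. Levels in CPM use TMM-scaled library sizes (mean ± SD) and are not divided by gene length, so they are compared between samples only. Folds are fitted values. An exact permutation test of 3 against 3 libraries cannot reach a p under 0.1. Positions are from GENCODE release 29, which held 58064 of 60240 gene IDs, and promoters from RefSeq (GRCh38.p14, 27305 windows, of which 11936 belong to tested genes, matched by symbol). Figures used Python 3.11.15, pandas 2.3.3 and matplotlib 3.10.9.

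The 39 gene lists, the rule for named genes and the tests were chosen with earlier results of these data known. The rule names ESR2, GREB1 and LOXL4, the 12 largest rises and 12 largest falls (called, groups apart, ordinary symbol, mean level 2 CPM or more), the 5 smallest adjusted p among the rest in each direction, and up to 4 called members of each list. A gene that this rule names is not reported here. Lists are described by counts and medians, with no test. Replicate numbers come from the titles. Over the 12625 genes averaging 2 CPM or more, residuals of same-numbered ERβ1 and CLI libraries correlated at 0.130, 0.416 and 0.146, and over 13708 genes of at least 1 CPM at 0.0995, 0.371 and 0.0992, while ERβ1 library 1 and CLI library 3 correlated at 0.180 and 0.142 and ERβ1 library 3 and CLI library 1 at 0.165 and 0.137. Values over 0.1 for all 3 pairs count as pairing, which was met at 2 CPM or more but not at 1 CPM or more. The block is printed where it changes a call. Alternatives were RLE and upper quartile scaling, no filter, a filter of 1 CPM in 3 libraries, limma-trend (limma 3.58.1) on the deposited log2 CPM, DESeq2 1.42.0, the 6 ERβ1 libraries alone, the replicate block, and each library left out, and, added after seeing the data, both number 2 ERβ1 libraries left out.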

Additional observations from a re-analysis of the deposited data

How the results depend on the processing

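The count of 251 called genes varied between the alternatives. DESeq2 called 641 (366 higher, 275 lower, 6 lower by at least 2-fold). The 6 ERβ1 libraries alone gave 158 (29 lower, 0 by at least 2-fold). The replicate block gave 136 (104 higher, 32 lower). The block within those 6 libraries gave 66 (60 higher, 21 of them at least 2-fold, and 6 lower). Without both number 2 ERβ1 libraries, an alternative chosen after seeing the data, 72 were called (56 higher, 16 by at least 2-fold, and 16 lower, 6 by at least 2-fold). At least 2-fold falls numbered 2 with no filter and 2 with limma-trend. With 1 library left out, 114 to 211 genes were called, 91 to 151 higher and 23 to 60 lower, with 27 to 41 rises and 0 to 4 falls of at least 2-fold. RLE and upper quartile scaling, no filter, 1 CPM in 3 libraries and limma-trend gave 224 to 291. No called gene changed sign in any alternative, and 41 genes, 39 higher and 2 lower (ESR2 and MMP1), were called in all 19. Fits that leave an arm with 2 samples share the spread of all libraries. The causes of these shifts were not tested.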

Other observations

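Several genes rose by at least 2-fold from levels too low for the naming rule, and they are given as counts over the 3 libraries of a group, chosen after their values were seen. The potassium channel gene KCNQ1 had 22 counts in ERβ1 cells and 213 with CLI (log2 fold change 3.29 ± 0.30 SE, edgeR adjusted p = 0.00134). KCNK15, another potassium channel gene, had 73 and 285 counts (log2 fold change 1.97, edgeR adjusted p = 0.0014, and 0.0502 without both number 2 libraries). ARC, a neuronal activity gene, had 99 counts in ERβ1 cells and 430 with CLI, in every library with CLI more than in any without (edgeR adjusted p = 0.00252). The tubulin gene TUBA3E had 4 and 124 counts (edgeR adjusted p = 0.00437), and its reads could also come from close tubulin paralogs. CPN2, a carboxypeptidase subunit, had 43 and 257 counts (edgeR adjusted p = 0.00502, and 0.0772 without both number 2 libraries). MGAT3, a glycosyltransferase, had 46 and 343 counts, but 184 of the latter lay in CLI library 1 against 81 and 78 in the others. KCNQ1 and ARC were called in all 19 alternatives.

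Called genes of proteins that bind or organise actin, also singled out after their values were seen, went in both directions. TAGLN, LIMA1, COTL1 and FLNC had log2 fold changes of -0.37, -0.30, -0.27 and -0.24, with edgeR adjusted p of 0.00605, 0.00534, 0.00533 and 0.00506, and the 4 calls held without each library in turn and under the block but not without both number 2 libraries (edgeR adjusted p of 0.0661 to 0.0790). GSN, which severs filaments, and the formin FMN1 were both higher with a log2 fold change of 0.53 and called in all 19 alternatives. DAAM1, ABLIM3 and TMOD1 had log2 fold changes of 0.30, 0.23 and 1.51. The calls of DAAM1 and ABLIM3 were lost under the block (edgeR adjusted p = 0.0706 and 0.0529), and that of TMOD1 without 4 single libraries, ERβ1 library 1 or 2 or CLI library 2 or 3 (edgeR adjusted p of up to 0.0709). Among abundant genes with even rises were PODXL, a sialomucin of the cell surface, from 724 to 1073 CPM on average (edgeR adjusted p = 8.74e-05), and the long noncoding RNA UCA1, from 230 to 331 CPM (edgeR adjusted p = 0.000281), both called in all 19 alternatives.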
